A study of Mus musculus with 20 samples.

Results

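The RNAs of mouse liver that were recovered with iron regulatory protein 1 (IRP1) were compared with those recovered by the same reaction without added IRP1. The comparison holds 4 of the 20 arrays of the study, chosen by their titles: 2 IRP1 immunoprecipitations of liver RNA and 2 control immunoprecipitations of liver RNA. All 45037 probe sets of the array other than the Affymetrix control probe sets were tested. In both liver groups the RNA came from C57BL6/J mice, females and males mixed, kept for 21 days from weaning on an iron-poor diet with less than 10 mg of iron in each kg. Both groups were therefore iron-poor, and no iron-replete liver was part of the comparison. Total RNA, extracted with Trizol from 4 to 6 mice per tissue, was pooled. In the IRP1 reactions 50 µg of this RNA met recombinant IRP1 with an N-terminal tag of histidines, made in E. coli, and a rabbit polyclonal antibody against IRP1. The control reactions had the antibody and no recombinant IRP1, although IRP1 is still named in the source label of the controls. About 120 ng of recovered RNA went through the two-cycle amplification onto an Affymetrix array of the whole mouse genome. Because free RNA met purified protein, the reactions measured binding outside the cell, and the p-values measure the spread between these reactions and arrays. Whether the replicas came from separate pools is not stated, so how much of that spread is technical is not known. In liver a part of it went with the replica number, as the enterocyte markers below show. None of it is between single mice. The other 16 arrays hold the same pair of reactions for duodenum and spleen on the same diet, and for bone marrow and brain of iron-normal mice of 8 to 10 weeks. They were used to estimate the spread and to ask where liver differed from the other tissues.

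IRP1 is a cytosolic protein that binds a stem-loop in mRNA, the iron-responsive element (IRE), when cells are short of iron, and works as an aconitase when it carries an iron-sulfur cluster. An IRE in the 5′ untranslated region lets IRP1 block translation, as in the ferritin and ferroportin mRNAs, and IREs in the 3′ untranslated region protect the transferrin receptor mRNA from decay. The liver stores much of the body's iron in ferritin, and its hepatocytes make hepcidin, the hormone that closes ferroportin.

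The liver arrays looked like liver. The mean log2 signal of 7 hepatocyte markers was between 13.24 and 14.01 on the 4 liver arrays and no higher than 9.05 on any other array. Markers of Kupffer cells averaged 8.73 to 9.26, those of sinusoidal endothelium 8.41 to 8.95, those of erythroid cells 5.38 to 5.71 and those of B and T cells 5.52 to 5.66. Enterocyte markers differed by replica number rather than by reaction: 7.42 and 7.79 in the IRP1 and control array of replica 1, against 8.78 and 8.93 in replica 2. In such bulk RNA, fewer cells of a type and less RNA per cell cannot be told apart. The array of control replica 1 had the widest spread of log2 values (SD 2.11), against 1.99 for control replica 2 and 1.90 and 1.95 for the IRP1 arrays. Correlations over all probe sets were 0.988 between the IRP1 arrays, 0.986 between the controls and 0.978 to 0.987 between an IRP1 array and a control.

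With IRP1, 41 probe sets of 29 named genes were higher and 42 probe sets of 29 named genes were lower than in the control (limma, Benjamini-Hochberg adjusted p under 0.05). These are 0.091% and 0.0933% of the probe sets tested, and at an unadjusted p under 0.05 the shares were 4.82% and 8.69%. The median rise was larger than the median fall: 34 of the 41 were at least 2-fold with a median of 3.11-fold, and 31 of the 42 falls were, with a median of 2.08-fold. The transferrin receptor, ferroportin, Epas1, Alas2 and Slc11a2, 5 genes with a known IRE, were among the rises, together with genes such as Cep95, Cxcl16, Pfn2 and Lpar1 for which textbooks name no IRE. Among the falls were Tcn2, the plasma carrier of vitamin B12, Hjv, the hemojuvelin co-receptor upstream of hepcidin, and many genes whose signal was higher in liver than in the other tissues. In all 83 called probe sets both IRP1 arrays lay on one side of both controls, as they did in 19.2% (above) and 26% (below) of all probe sets. The counts rest on few arrays: without IRP1 replica 1, control replica 1, IRP1 replica 2 or control replica 2, the rises numbered 11, 8, 12 and 13 and the falls 4, 3, 17 and 16. Of the named genes, the calls that stood without each liver array were those of Tfrc (2 probe sets), Slc40a1, Epas1, Lpar1 (1 probe set) and Tcn2.

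**Figure D1:**
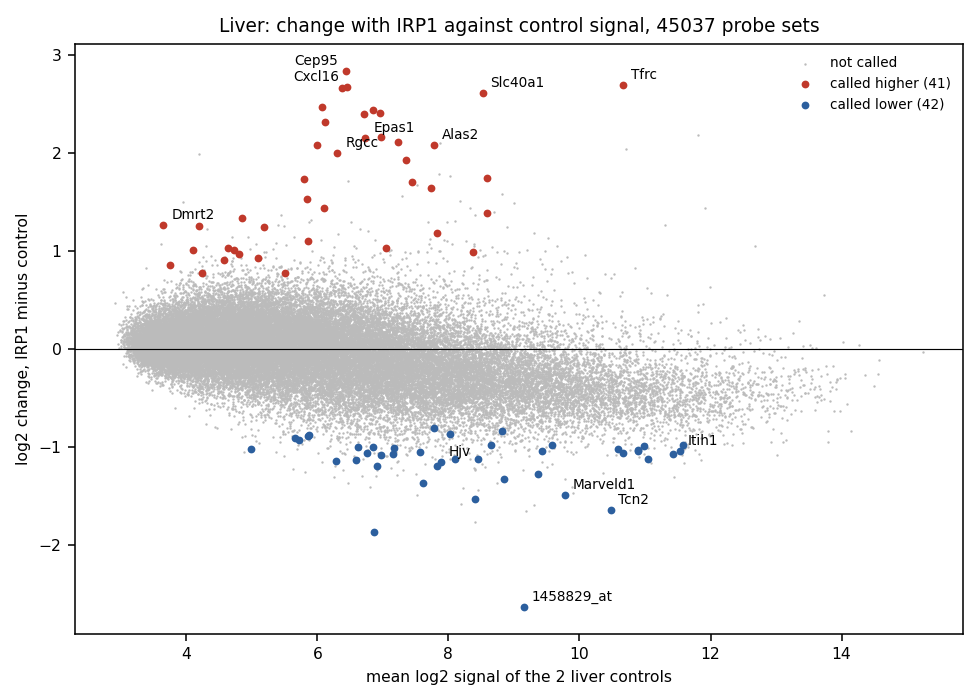
Log2 change with IRP1 (vertical axis) against the mean log2 signal of the 2 liver controls (horizontal axis) for 45037 probe sets. Red points are the 41 called higher, blue points the 42 called lower, grey points the rest; the grey cloud slopes below 0 at high signal, and Tfrc, Slc40a1 and Cep95 stand far above it.

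The genes with IREs in the 3′ untranslated region were led by Tfrc, which encodes transferrin receptor 1, the main route of iron uptake from plasma. Its brightest probe set read 13.19 and 13.53 with IRP1 against 10.89 and 10.44 in the controls. The groups did not overlap, and the change of 2.69 ± 0.28 (SE of the model, log2) is 6.46-fold (adjusted p = 0.000842). The other Tfrc probe sets rose by 2.39 ± 0.28 (adjusted p = 0.00135) and, near the dim end of the scale at 4.12 and 4.28 in the controls, by 1.25 ± 0.18 (adjusted p = 0.0112). Slc11a2 encodes DMT1, which carries ferrous iron across membranes, and its mRNA is made in forms with and without the IRE. Its largest change was from 7.34 and 7.36 to 8.88 and 9.66, a rise of 1.92 ± 0.31 (adjusted p = 0.0201), and 2 further probe sets rose by 1.70 and 1.43. The fourth Slc11a2 probe set read 8.17 and 8.14 with IRP1 against 8.01 and 8.82, groups that overlapped (change -0.26, adjusted p = 0.787). Which form of the mRNA each of the 4 reads was not examined.

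Hao1, the liver peroxisomal glycolate oxidase, read 12.50 and 12.97 with IRP1 against 10.57 and 10.84 in the controls. The groups were well apart, at 2.03 ± 0.54 or 4.09-fold, but the change did not pass (adjusted p = 0.139). Cdc14a, a phosphatase of the cell cycle, and Cdc42bpa, a kinase that acts on the cytoskeleton, each had several probe sets and none was called. The changes of the brightest were -0.68 (adjusted p = 0.322) and 0.10 (adjusted p = 0.884). By the brightest probe set, 2 of the 5 genes of this list were called higher, beside 0.0989% of 18193 genes, and their median change was 1.92 beside -0.05 over all genes. At an unadjusted p under 0.05, 3 of the 5 were higher and 1, Cdc14a, lower, beside 4.67% and 10.4% of all genes.

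Among genes with an IRE in the 5′ untranslated region, Slc40a1, which encodes ferroportin, the cellular exporter of iron, changed most. One of its probe sets went from 8.58 and 8.47 to 10.84 and 11.42, a rise of 2.61 ± 0.30 or 6.10-fold (adjusted p = 0.00135). The brighter Slc40a1 probe set read 12.46 and 12.67 against 11.36 and 11.26, also without overlap, at 1.26 ± 0.27 (adjusted p = 0.0865). Alas2 encodes the enzyme of red cell precursors for the first step to heme. It had 1 probe set, with 10.21 and 9.50 against 7.90 and 7.65. It rose by 2.08 ± 0.39 (adjusted p = 0.0447), in a tissue whose erythroid markers were dim: 6 of 9 had a mean control signal below 6. The Alas2 call was lost without each liver array in turn and under 2 of the 10 alternative settings. These were the floor at log2 5 and the covariate for each array's SD. Its change stayed between 1.73 and 2.46 throughout. All 9 erythroid markers had positive changes, from 0.11 to 0.92, none called; their mean signal was 5.68 and 5.71 with IRP1 against 5.38 in each control, and its part in the Alas2 value was not tested. Epas1, the hypoxia-inducible factor 2 alpha, split by probe set. The dimmer went from 6.93 and 6.54 to 8.69 and 9.07, a rise of 2.15 ± 0.26 (adjusted p = 0.00242), while the brighter read 12.62 and 12.63 against 12.31 and 11.67 (change 0.63, adjusted p = 0.427).

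The ferritins, whose mRNAs carry the best known IREs, were bright in the liver controls on all but 1 probe set. The highest values of the 2 control arrays were 15.25 and 15.23. Fth1, the heavy chain, read 14.13 and 14.43 with IRP1 against 13.74 and 13.74 on its brightest probe set, which reached no call at 0.54 ± 0.23 (adjusted p = 0.322). Its other probe set read 13.56 and 13.90 against 12.84 and 12.53 (1.05 ± 0.27, adjusted p = 0.122). In both, the IRP1 arrays lay above the controls. Every probe set for Ftl1, the light chain, is also annotated to the pseudogene Ftl1-ps2, so the signals of gene and pseudogene cannot be told apart. The brightest of these 3 read 13.80 and 14.19 against 12.13 and 11.50, 4.52-fold apart with an adjusted p of 0.063. A much dimmer one, annotated also to a family of microRNA genes, read 9.94 and 9.98 against 8.64 and 8.53 and was called (1.38 ± 0.24, adjusted p = 0.0299). By the brightest probe set with 1 gene symbol, 1 of the 4 measured genes of the 5′ list was called, beside 0.0989% of all genes, and the median change was 0.95. Over both IRE lists, 9 of the 22 probe sets of 9 genes were called higher, beside 0.091% of all probe sets, and none lower. In 16 of the 22 both IRP1 arrays lay above both controls, beside 19.2% of all.

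**Figure D2:**
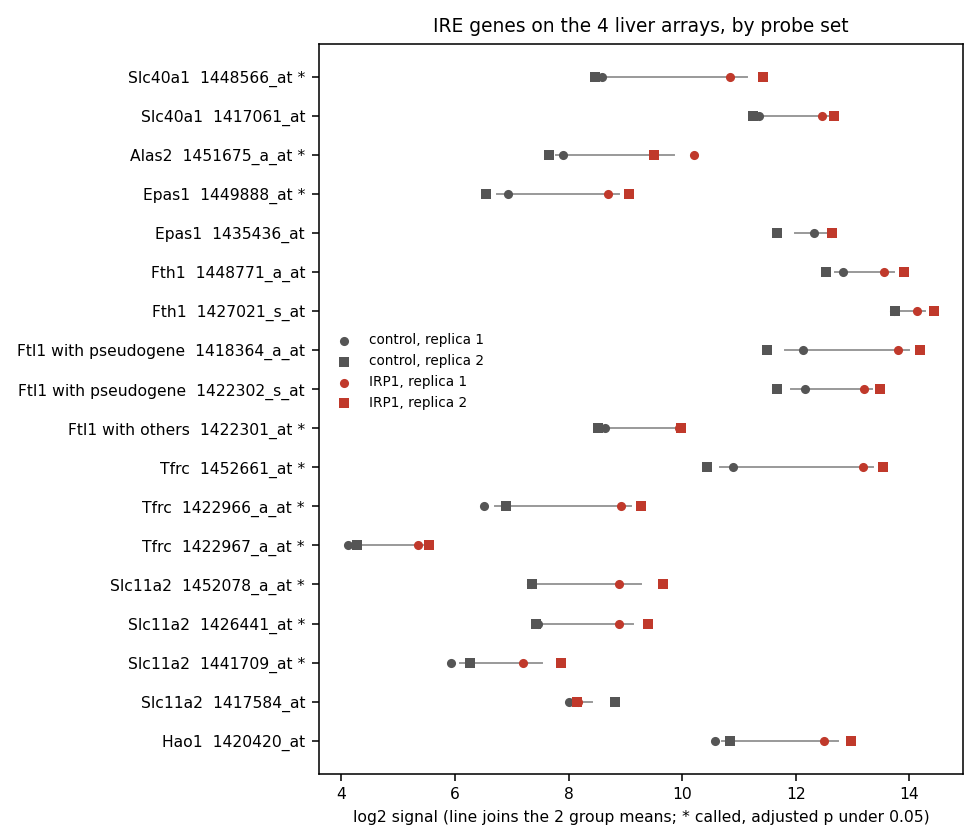
Log2 signal (horizontal axis) of the probe sets of 7 IRE genes and Ftl1 on the 4 liver arrays. Grey marks are controls, red marks IRP1 reactions, circles replica 1 and squares replica 2; lines join group means and stars mark calls. All but 1 of the ferritin probe sets sit at the bright end already in the controls. Among the probe sets drawn, the groups overlap only in 1417584_at of Slc11a2. Cdc14a and Cdc42bpa of the same IRE lists are not drawn. By the brightest probe set, Cdc14a lay below its controls and Cdc42bpa overlapped with them.

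Genes whose IRE is only proposed did not move with these. App, Prnp, Ndufs1, Sdhb and Bdh2 had changes between -0.65 and -0.18 by their brightest probe sets, none of them called, and their median of -0.28 turned to 0.04 after quantile normalization. The gene of the bait, Aco1, had 3 probe sets with changes of -0.49, -0.40 and -0.03, and its relative Ireb2, which encodes IRP2, changed by -0.57 (adjusted p = 0.356). The list of IRP genes and their regulators, which takes in the iron-sulfur assembly factors, held no call among 11 genes and a median of -0.34.

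A group of 16 genes without a known IRE had been named in earlier results of these arrays, liver included, so their direction here is no independent evidence. By the brightest probe set 5 of the 16 were called higher, beside 0.0989% of all genes, and by any probe set 7 were, beside 0.091% of all probe sets; since the genes were named from these arrays, nothing is read from either count. Cep95, a centrosomal protein, had the largest rise in liver: 9.0 and 9.54 with IRP1 against 6.27 and 6.60, or 7.14-fold (2.84 ± 0.49, adjusted p = 0.0249). Cxcl16, a chemokine made by macrophages and endothelium, read 8.75 and 9.49 against 6.56 and 6.33 (2.67 ± 0.44, adjusted p = 0.0201). The groups of both genes were more than 2 log2 units apart. Pfn2, an actin-binding profilin, rose on all 3 of its probe sets, the largest from 6.01 and 6.15 to 8.56 and 8.52 (2.47 ± 0.34, adjusted p = 0.00932). Lpar1, which binds lysophosphatidic acid at the cell surface, was called higher on 2 of 3, the larger from 6.74 and 6.97 to 8.97 and 9.61 (2.43 ± 0.30, adjusted p = 0.00259). The sizes were in the range of those of the IRE genes.

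Tomm40, the channel through which proteins enter mitochondria, read 8.57 and 8.30 with IRP1 against 6.30 and 5.95 (2.32 ± 0.39, adjusted p = 0.0245). Lrpap1, which escorts receptors of the LDL receptor family through the secretory pathway, was called higher on 1 of 4 probe sets, from 7.23 and 6.71 to 8.98 and 9.28 (2.16 ± 0.37, adjusted p = 0.0248). Another Lrpap1 probe set changed by 1.51 ± 0.33 without a call (adjusted p = 0.0887), and the brightest by -0.24. Gstm6, a glutathione transferase, went from 7.70 and 7.78 to 9.33 and 9.41 (1.64 ± 0.27, adjusted p = 0.0211), and its liver controls were brighter than every control of another tissue. Of the members that were not called, Shc1 (2.10, adjusted p = 0.104), Apba3 (1.78), Ormdl1 (1.58) and Fxyd5 (1.03) had changes of more than 1 log2 unit. Egr2 read 1.98 on a probe set with an adjusted p of 0.059 and 0.62 on its brighter one. Kcnf1, Ppp1r1b, Lnx1 and Dlg2, by contrast, had changes between 0.02 and 0.23.

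The remaining 11 named genes that rose at least 2-fold had mean changes of at most 0.77 in the other tissues, and in none did the difference from liver pass. Rgcc, a regulator of the cell cycle, read 8.27 and 8.33 with IRP1 against 6.06 and 6.55 in liver, a rise of 1.99 ± 0.33 (adjusted p = 0.0214). Its mean change in the other tissues was 0.09, with a difference of 1.91 ± 0.37 (adjusted p = 0.24), and its second probe set changed by 0.10 in liver. Rnf43, a ubiquitin ligase that restrains Wnt signalling, rose by 1.53 ± 0.26 (adjusted p = 0.0231) in liver and had a mean change of 0.77 elsewhere. Grb10, an adaptor of the insulin receptor, rose by 1.24 ± 0.20 (adjusted p = 0.0201), and Cit, the citron kinase of cell division, by 1.18 ± 0.19 (adjusted p = 0.0201). The brightest probe sets of these 2 genes changed by -0.37 and 0.01. Plp2, a membrane proteolipid, went from 6.95 and 7.14 to 8.23 and 7.92, an increase of 1.03 ± 0.17 (adjusted p = 0.0211) with a mean change of 0.02 elsewhere. Cenpa, the histone of the centromere, Dmrt2, a transcription factor, Syt17, a synaptotagmin, Emsy, a nuclear partner of BRCA2, and Klk4, a secreted protease, rose by 1.34, 1.26, 1.09, 1.02 and 1.01. In these 5 genes no liver control exceeded a log2 signal of 6.1. Their calls were lost under 3 (Cenpa), 4 (Dmrt2, Syt17, Emsy) and 7 (Klk4) of the 10 alternative settings, and with values below log2 5 set to 5 the changes of Dmrt2 and Klk4 were 0.14 and 0.16. The brightest probe sets of Cenpa and Emsy changed by -0.08 and 0.19, neither of them called.

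Bmpr1a, a BMP receptor of the pathway that induces hepcidin, was called higher on 1 of its 6 probe sets (1.01 ± 0.19, adjusted p = 0.0459), the dimmest, with 5.93 and 5.54 against 5.02 and 4.44. The other Bmpr1a probe sets had changes between -0.37 and -0.03, none called. The call was lost under 4 of the 10 alternative settings and without each liver array in turn except control replica 1.

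**Figure D3:**
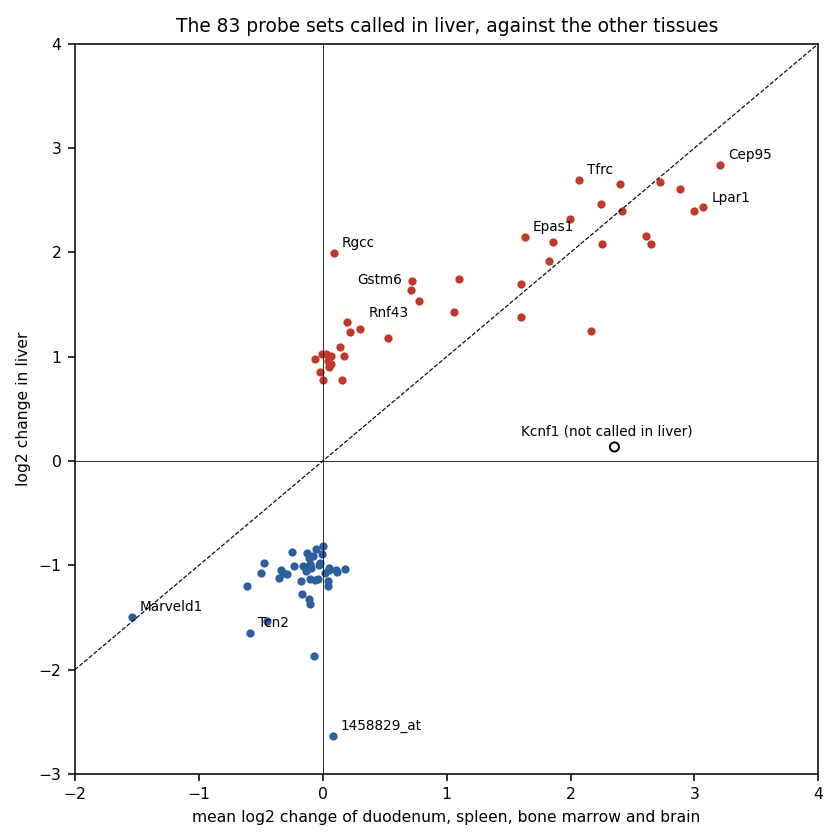
Log2 change in liver (vertical axis) against the mean log2 change of duodenum, spleen, bone marrow and brain (horizontal axis) for the 83 called probe sets, red for higher and blue for lower, with Kcnf1 as an open circle; the dashed line marks equal changes. Many rises lie along the line, a cluster from Rgcc downward lies near 0 elsewhere, and most falls lie near 0 elsewhere.

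The largest fall was in a probe set with no gene in the annotation, 1458829_at, which read 6.61 and 6.41 with IRP1 against 9.40 and 8.89 in the controls, a decrease of 6.22-fold (-2.64 ± 0.27, adjusted p = 0.000842). Tcn2, transcobalamin 2, read 8.93 and 8.72 against 10.63 and 10.32, or 3.14-fold lower (-1.65 ± 0.19, adjusted p = 0.00135). It was called lower on 1 of its 5 probe sets, of a kind (x_at) that Affymetrix marks as open to cross-hybridization, and the other 4 had changes between -0.74 and -0.18. Marveld1, a membrane protein, also stood on an x_at probe set, with 8.22 and 8.36 against 9.86 and 9.70 (-1.49 ± 0.28, adjusted p = 0.0447). The mean change of the other tissues for that Marveld1 probe set was almost the same, at -1.54. The other 3 Marveld1 probe sets changed by -0.93, -0.06 and 0.18, none of them called, and the call was lost under 4 of the 10 alternative settings.

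Hjv, hemojuvelin, a co-receptor for BMPs that hepatocytes need for hepcidin, was lower with IRP1. Its probe set read 6.78 and 6.68 against 8.02 and 7.74, with no overlap (-1.15 ± 0.15, adjusted p = 0.0053). The brighter Hjv probe set read 8.93 and 8.83 against 9.76 and 9.18, a change of -0.59 that did not pass (adjusted p = 0.223). The Hjv call was lost without control replica 1, without IRP1 replica 2 and with liver arrays alone. Qsox1, an enzyme that forms disulfide bonds, was called lower on 2 of 4 probe sets, from 7.73 and 7.93 to 6.69 and 6.57 (-1.20 ± 0.19, adjusted p = 0.0201) with a change of -1.28 ± 0.21 on the brighter of the pair.

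Itih1 and Gsta3 were called lower at high signal. Itih1, a plasma protein that binds hyaluronan, went from 11.66 and 11.41 to 10.45 and 10.54 (-1.04 ± 0.16, adjusted p = 0.0201). Gsta3, a glutathione transferase, went from 10.65 and 10.67 to 9.56 and 9.62 (-1.07 ± 0.16, adjusted p = 0.0112). Sardh, the mitochondrial sarcosine dehydrogenase, changed by -1.13 (adjusted p = 0.0472). Gckr and Gcgr, the glucokinase regulator and the glucagon receptor, and Proc, protein C, were called as well, at -1.04, -1.03 and -0.98; these 3 were chosen after their values were seen. The calls for Itih1, Gsta3 and Sardh were lost after quantile normalization of the arrays, with liver arrays alone and without IRP1 replica 1. Other genes that fell at least 2-fold were Clmn (-1.33), Ilrun (-1.20), Sec14l4 (-1.13), Nfib, a transcription factor (-1.12), Rnf103, a ubiquitin ligase of the endoplasmic reticulum (-1.08), Mapkap1, a subunit of mTORC2 (-1.07), Naaa, a lysosomal amidase (-1.06), and Fgf1, a growth factor (-1.05). Each of these 8 rests on 1 probe set. The brightest probe set changed by 0.21 for Clmn, 0.13 for Mapkap1, -0.19 for Naaa, -0.48 for Nfib and -0.58 for Fgf1, none of them called. Of the 10 alternative settings, 7 ended the calls of Rnf103 and Fgf1, 4 those of Sec14l4, Mapkap1 and Naaa, 3 that of Nfib and 2 those of Clmn and Ilrun.

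In 31 of the 42 lowered probe sets (73.8%) both liver controls were brighter than every control of the other 4 tissues, beside 11% of all probe sets and 5 of the 41 that rose. Where the mean liver control signal was at least 7 the shares were 23 of 29 lowered probe sets (79.3%) and 16.6% of all. The liver controls enter both the fall and this ranking, so the shares are a description and were given no test.

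The falls also went with signal. The median change over all probe sets was 0.06 where the control signal was below 5, -0.22 at 7 to 9 and -0.44 at 11 and above. This slope differed between replica numbers: at 11 and above the median of IRP1 minus control was -0.76 in replica 1, whose control had the widest spread, and -0.10 in replica 2. The liver controls enter both the control signal and the change, so these medians are a description and were given no test. Lists of liver genes had negative medians of like size. Of 24 hepatocyte plasma proteins 1, Itih1, was called lower, with a list median of -0.41; 7 had an unadjusted p under 0.05, beside 10.4% of all genes, and in 16 both IRP1 arrays lay below both controls, beside 29.2%. None of 29 cytochrome P450 genes (median -0.36), 16 genes of the urea cycle and amino acid catabolism (-0.61), 22 peroxisomal genes (-0.45) and 16 genes of the TCA cycle (-0.44) was called by its brightest probe set, beside 0.0824% of all genes called lower. After quantile normalization these medians were -0.09, -0.04, -0.23, -0.11 and -0.06, whereas those of the 5′ and 3′ IRE lists were 1.33 and 2.26. The part of array spread in the single falls was not tested beyond these settings. The spread of the model is shared with the other tissues, which made the SE of some bright liver genes large. Ttr read 13.95 and 14.22 with IRP1 and 14.54 and 14.17 in the controls, with an SE of 0.91, and Cyp3a11 had an SE of 0.94. Other genes, such as Itih1 (0.16), had a small SE. Where the SE is large the lack of a call says little.

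Other iron genes gave few calls. Among 20 genes of hepatic iron sensing and hepcidin, none was called by its brightest probe set, and the median of -0.16 moved to 0.02 after quantile normalization. By any probe set, Bmpr1a was called higher and Hjv lower. Hamp, hepcidin itself, was dim on its brightest probe set, at 5.51 and 5.48 with IRP1 against 5.48 and 4.97 in the controls. Its change was 0.27, which says little at such a signal. The copy Hamp2 changed by 0.84 (adjusted p = 0.188), and the near-identical genes may share signal. Tfr2, the second transferrin receptor, which senses plasma iron in hepatocytes and has no IRE, had changes of -0.57 (adjusted p = 0.19) and -0.52 (adjusted p = 0.284), opposite in sign to Tfrc. Smad5, a carrier of the BMP signal, had the lowest value of the list, at -0.81 (adjusted p = 0.11). Plasma iron and heme carriers (8 genes, median -0.44), heme synthesis without Alas2 (7 genes, -0.50) and cellular iron handling without a known IRE (25 genes, -0.27) held no call in either direction. Their lowest members were Lrp1 (-0.74), Cpox (-0.83) and Pcbp2 (-0.67), and after quantile normalization the list medians were -0.18, -0.17 and -0.09. With each array's SD as a covariate the median of the plasma carriers turned to 0.22.

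Of 11 genes of cobalamin handling none was called (median -0.32), although Tcn2 was called by a probe set other than its brightest. Lists of 17 genes of the hypoxia response (median -0.35), in which Epas1 is not counted, 27 cytosolic ribosomal proteins (-0.31) and 11 reference genes (-0.30) also held no call and had negative medians. For the ribosomal proteins and reference genes the sign turned after quantile normalization, to 0.02 and 0.06.

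**Figure D4:**
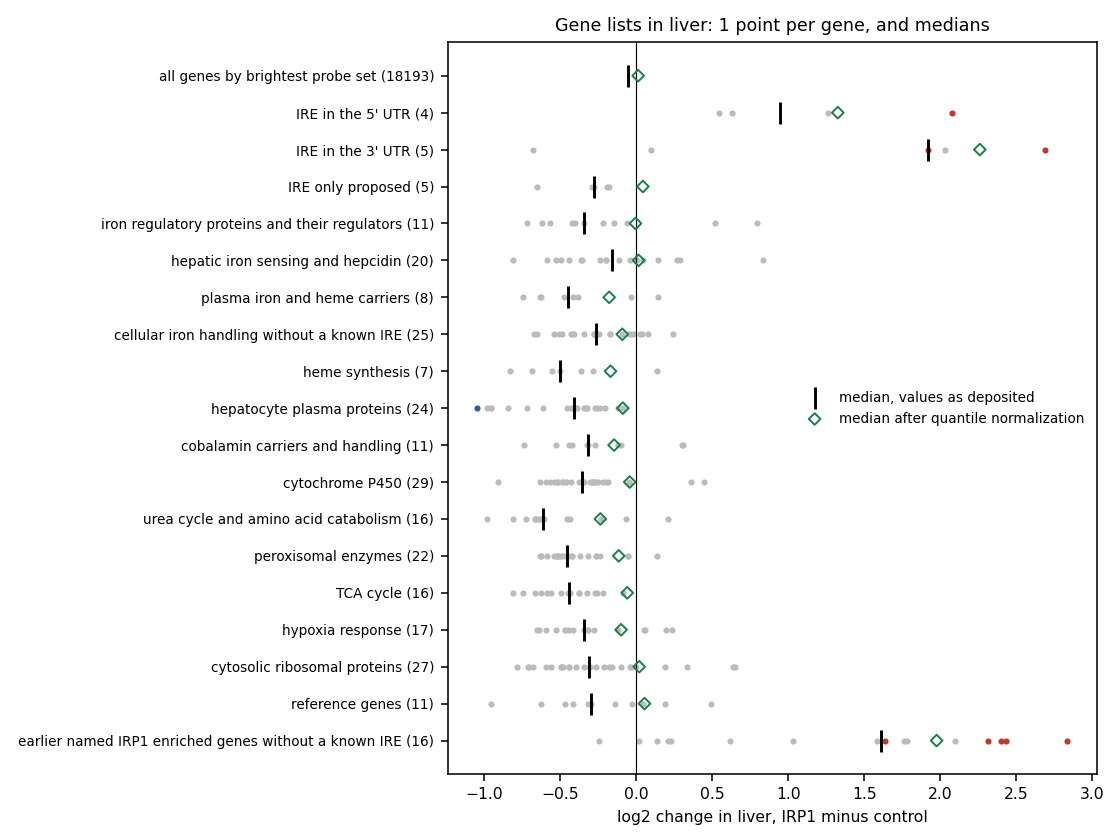
Log2 change in liver (horizontal axis) of the members of 18 gene lists, 1 grey point per gene by its brightest probe set, red where called higher and blue where called lower. Black bars are medians of the values as deposited and green diamonds medians after quantile normalization, with the top line giving the median of 18193 genes. The 2 IRE lists and the earlier named genes lie right of 0 under both; most other bars lie left of 0 with diamonds nearer to 0.

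Probe sets of 1 gene often disagreed. Of the 29 genes with a call upward, 19 had several probe sets, 4 had 2 or more called and only Tfrc and Pfn2 had all called; in 12 of the 19 all probe sets had the same sign. Of the 29 genes with a call downward, 22 had several, 1 (Qsox1) had 2 called and 12 had all of 1 sign. The changes of Tfrc, Pfn2 and Cxcl16 were above 1.2 on every probe set, whereas Cep95 ran from 0.07 to 2.84 and Lrpap1 from -0.24 to 2.16.

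**Figure D5:**
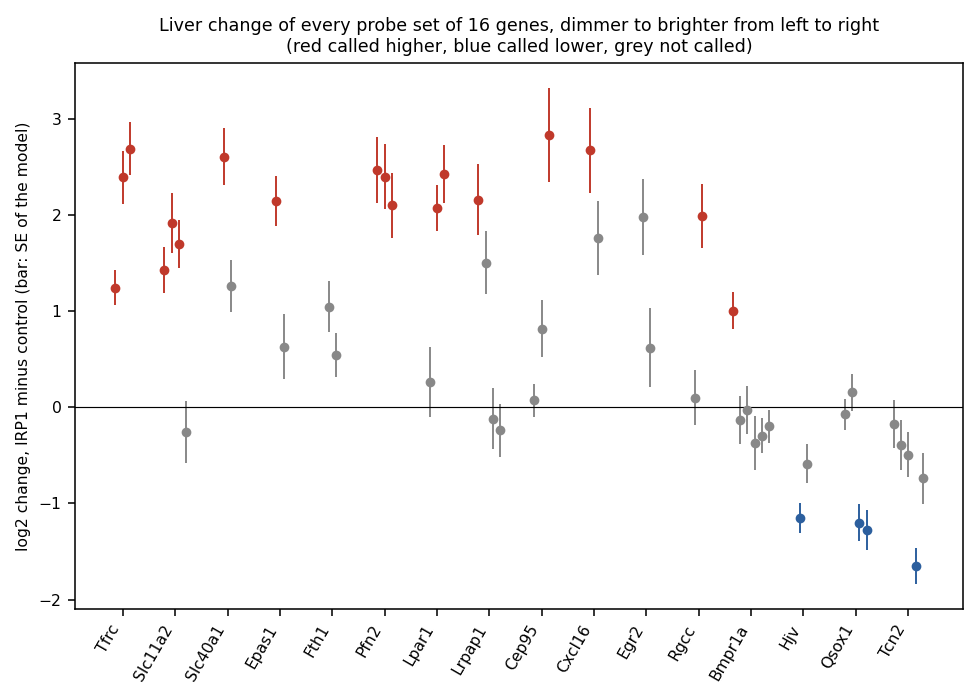
Log2 change in liver with the SE of the model (bars) for every probe set of 16 genes, from the dimmer on the left to the brighter on the right within each gene. Red was called higher, blue lower and grey not called; all points of Tfrc and Pfn2 are red, and Bmpr1a has 1 red point beside 5 grey points near or below 0.

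The liver rises overlapped with those of the other tissues. Of the 41 probe sets, 16 were also called higher in duodenum (39% of the liver calls and 44.4% of those of duodenum), 18 in spleen (43.9% and 58.1%), 18 in bone marrow (43.9% and 31.6%) and 10 in brain (24.4% and 25.6%). Probe sets of Cep95, Lpar1, Lrpap1 and Tfrc were called in all 5 tissues, whereas 20 of the 41 were called in liver and in no other tissue. The calls upward were 0.0799% of all probe sets in duodenum, 0.0688% in spleen, 0.127% in bone marrow and 0.0866% in brain, and those downward 0.0244%, 0.0333%, 0.00444% and 0.0377%. The falls were shared less: 40 of the 42 were called in no other tissue, Tcn2 was called in 1 other and Marveld1 in 2. A call in 1 tissue and not in another does not show a difference, so the liver change was tested against the mean change of the other 4. No probe set was higher in that test (limma, adjusted p under 0.05; 2.78% had an unadjusted p under 0.05) and 3 were lower, or 0.00666% (3.49% unadjusted): 1458829_at, Kcnf1 and Hjv. The count of falls was 0 without liver control replica 1 and ran to 6 without spleen IRP1 replica 1. The IRE genes were therefore not shown to differ between liver and the other tissues. For the brightest Tfrc probe set the difference was 0.62 ± 0.31 (adjusted p = 0.808), for Slc40a1 -0.27 ± 0.33 (adjusted p = 0.906), for the brightest Ftl1 probe set -1.29 ± 0.49 (adjusted p = 0.727) and for Hao1 0.89 ± 0.61 (adjusted p = 0.848).

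In each of the 3, liver or the other tissues lay near the dim end of the scale, where an RNA that is not above background can show no change. The part of dim signal in these differences was not tested, and they are not shown to be differences in binding. Kcnf1, a subunit of voltage-gated potassium channels, read 3.91 and 4.01 with IRP1 against 3.86 and 3.79 in liver, dim on every array. Its changes in duodenum, spleen, bone marrow and brain were 2.55, 1.05, 2.75 and 3.06. The Kcnf1 controls of duodenum, spleen and bone marrow were dim as well, between 3.39 and 4.33. In 1458829_at and Hjv the other tissues were dim instead: no other array exceeded 5.41 for 1458829_at or 3.60 for Hjv.

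The loop of the IRE is written CAGTGN in DNA letters. These letters were searched in the first 50 bases after the annotated start in the RefSeq table of promoters (GRCm38.p6) on the transcript strand, where 8.23% of 27025 genes held them (7.69% on the other strand). Of the 29 genes called higher 22 had an entry and 1, Dmrt2, held the letters; of the 29 called lower 22 had an entry and 2, Rnf103 and Sardh, did. Of the 7 IRE genes with an entry, 1, Hao1, held them, although its known IRE is in the 3′ untranslated region, which this window does not cover. A match is a description of these letters and not of a site.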

How the data were processed

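Signals were deposited by the authors on the log2 scale, with 1 value for each probe set and array. Per the submitters' processing notes and the series' design text, the intensities came from RMA, or from MAS5 in GCOS followed by quantile normalization; which of these made the table is not given in the sources used here. Values near the top or floor of this scale compress changes. The deposited log2 values entered the fit unchanged and unfiltered. A linear model with 10 group means was fitted to all 20 arrays (limma 3.58.1, R 4.3.3; 10 residual degrees of freedom and 6.14 from the prior), so that all tissues share an estimate of the spread. P-values are two-sided and adjusted by Benjamini-Hochberg over 45037 probe sets, and 64 Affymetrix controls were left out. The annotation gave 1 gene symbol for 34945 probe sets, several for 932 and none for 9160.

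Named were the 25 genes with the largest rises and the 15 with the largest falls (called, at least 2-fold, 1 symbol, groups apart; 23 rises qualified), all IRE genes, Aco1, Ireb2, called list members and up to 4 members of each list. In lists a gene stands by its probe set with 1 symbol and the highest mean. Members and lists were chosen with earlier results of these data known. Whether replicas of liver came from separate pools is not stated. On simulated data a liver log2 change of 2 was found in 98.5%, of 1 in 70.1% and of 0.5 in 5.97% of changed probe sets. For liver minus the mean of the other 4 the shares were 98.5%, 47.8% and 2.99%. The simulated noise was normal and independent between arrays, with 1 spread per probe set for all tissues and no change in the other tissues. It held no slope with signal and no effect of replica number, so the shares in the real data may be lower. Alternatives changed the normalization, floor, filter, arrays, block, weights and variance prior. Figures were drawn with matplotlib 3.10.9 in Python 3.11.15.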

Additional observations from a re-analysis of the deposited data

Results flagged for a closer look

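In 3 probe sets the liver change differed from the mean change of duodenum, spleen, bone marrow and brain by a test of the difference itself (limma, adjusted p under 0.05). The difference was -2.72 for the unnamed probe set 1458829_at (adjusted p = 0.00424), -2.22 for Kcnf1 (adjusted p = 0.0398) and -1.20 for Hjv (adjusted p = 0.0405). The 1458829_at controls read 9.40 and 8.89 in liver and between 4.37 and 4.87 in the other tissues. The Hjv controls read 8.02 and 7.74 in liver and between 3.28 and 3.54 elsewhere. For Kcnf1 all 4 liver arrays read between 3.79 and 4.01, and the brain IRP1 arrays 11.19 and 12.28 against brain controls of 8.61 and 8.74. The Kcnf1 controls of duodenum, spleen and bone marrow were dim as well, between 3.39 and 4.33. The Kcnf1 changes there were 2.55, 1.05 and 2.75. In each case liver or all 4 other tissues thus lay near the dim end of the scale on every array. An RNA that is not above background can show no change there. The part of dim signal in these differences was not tested, and they are not shown to be differences in binding.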

How the results depend on the processing

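Against 41 rises and 42 falls, quantile normalization gave 141 and 89 (61.3% higher, against 49.4%), a floor at log2 5 gave 276 and 218, median centring 33 and 47, a covariate for each array's standard deviation 54 and 18 (75% higher), liver arrays alone 30 and 4, and leaving out the 2 spleen arrays with low hybridization controls 37 and 22. Leaving out each array in turn gave 8 to 46 rises and 3 to 45 falls; beside the liver arrays, the falls dropped to 18 without either spleen control and to 20 without either duodenum control. With the replicate block (replica number within each tissue) there were 33 rises and 26 falls, of which 28 and 17 were among the 41 and 42, and 13 of 46 named called probe sets were no longer called. No label says whether replica numbers pair the liver arrays, and the main fit held no such block. Deviations of equal numbers correlated at -0.07 over all probe sets, dim ones included, which does not exclude a pairing. Alpi read 5.18 (IRP1) and 5.79 (control) in replica 1 against 8.96 and 8.93 in replica 2. Cdh17 read 5.12 and 4.77 against 7.62 and 7.82. For these enterocyte markers arrays of equal number were alike, whereas Fabp2, Apoa4 and Mttp did not split by number. Whether equal numbers share RNA was not tested. For liver minus the mean of the other 4, no rise became 4 after quantile normalization and 194 with the floor; the 3 falls became 122 with the floor, and 1 each with a filter on dim probe sets, without the low spleen arrays and against duodenum and spleen alone. Each array left out gave 0 rises and 0 to 6 falls (0 without liver control replica 1). The cause of these moves was not tested. Of 46 named called probe sets none changed sign; the liver arrays alone kept 20 calls and gave no value for the comparison with other tissues. Arrays were too few to find most changes of 0.5 on the log2 scale.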
